A study of Homo sapiens with 2 samples.

Results

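The genes described here carry VPS names (vacuolar protein sorting) or SNX names (sorting nexin), 2 families known for moving membrane proteins through endosomes. Members were chosen from the annotated APC peak list by name: every peak whose gene type was protein-coding and whose gene name began with VPS or SNX and a digit. The rule took 153 of the 44771 peaks in the list, 84 named for 28 VPS genes and 69 named for 26 SNX genes. A gene had to have a peak to be taken, so the presence of a peak among these 54 genes is not a result. Both families were therefore also counted over all 65 protein-coding VPS and SNX genes of the RefSeq gene table, peak or no peak.

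The peaks come from chromatin immunoprecipitation followed by sequencing (ChIP-seq) in HCT-116, an established human colon carcinoma line with wild-type APC and a CTNNB1 allele lacking Ser45, which leaves β-catenin resistant to degradation. The APC ChIP is 1 library, made with a polyclonal antibody against the C-terminal end of the protein. The input is 1 library of HCT-116 chromatin with no antibody. With 1 ChIP library and no replicate, no difference between families or from the background was tested. No precipitation with a control antibody was analysed here, so APC binding and a general recovery of open chromatin cannot be told apart. Intervals cover counting error only, and the read depth behind a peak is unknown.

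Endosomes sort the proteins taken up from the cell surface, either back to the surface and the Golgi or on to the lysosome. Retromer, a VPS26, VPS29 and VPS35 trimer, and its sorting nexin partners run the recycling route, ESCRT complexes pack cargo into vesicles bound for the lysosome, and the HOPS, CORVET, GARP and EARP complexes tether membranes before fusion. Sorting nexins bind phosphoinositide lipids through a PX domain, and those with a BAR domain also bend membrane into tubules. Retromer with SNX3 recycles WLS, the carrier that takes WNT proteins to the cell surface.

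The upstream sequences of 5 retromer-linked genes are shown because these genes differed in the peaks named for them. VPS26B, VPS29 and SNX27 had a named peak over the transcription start site (TSS), SNX3 had none within 10 kb and VPS35 had none. Whether a peak named for a neighbouring gene reaches the VPS35 start was not measured. Each run holds the 250 bases before the RefSeq start, 5′ to 3′ on the strand of the gene, on GRCh38.p14, while peaks are given on hg19. Capitals mark any match, on either strand, to 9 short motifs that are spelled out further on.
VPS26B, GRCh38.p14 chr11:134224421-134224670, plus strand: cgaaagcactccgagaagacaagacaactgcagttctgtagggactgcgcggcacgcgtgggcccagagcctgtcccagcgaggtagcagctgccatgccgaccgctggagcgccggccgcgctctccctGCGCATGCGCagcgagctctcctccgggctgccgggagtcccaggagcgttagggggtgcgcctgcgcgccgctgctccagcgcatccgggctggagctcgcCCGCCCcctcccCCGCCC
VPS29, GRCh38.p14 chr12:110502112-110502361, minus strand: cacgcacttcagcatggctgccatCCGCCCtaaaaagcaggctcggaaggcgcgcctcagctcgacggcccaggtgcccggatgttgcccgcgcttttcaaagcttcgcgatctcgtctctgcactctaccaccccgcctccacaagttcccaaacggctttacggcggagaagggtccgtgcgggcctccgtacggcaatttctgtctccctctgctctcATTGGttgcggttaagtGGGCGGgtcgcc
VPS35, GRCh38.p14 chr16:46689179-46689428, minus strand: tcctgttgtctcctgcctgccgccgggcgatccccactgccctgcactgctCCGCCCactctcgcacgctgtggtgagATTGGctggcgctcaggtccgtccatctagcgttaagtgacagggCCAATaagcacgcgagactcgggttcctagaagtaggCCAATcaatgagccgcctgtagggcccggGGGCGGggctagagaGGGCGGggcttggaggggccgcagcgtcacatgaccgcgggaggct
SNX27, GRCh38.p14 chr1:151611800-151612049, plus strand: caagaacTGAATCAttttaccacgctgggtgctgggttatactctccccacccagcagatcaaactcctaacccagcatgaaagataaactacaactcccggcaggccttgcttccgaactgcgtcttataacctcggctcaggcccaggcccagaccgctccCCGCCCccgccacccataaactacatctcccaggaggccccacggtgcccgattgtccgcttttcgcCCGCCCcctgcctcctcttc
SNX3, GRCh38.p14 chr6:108261041-108261290, minus strand: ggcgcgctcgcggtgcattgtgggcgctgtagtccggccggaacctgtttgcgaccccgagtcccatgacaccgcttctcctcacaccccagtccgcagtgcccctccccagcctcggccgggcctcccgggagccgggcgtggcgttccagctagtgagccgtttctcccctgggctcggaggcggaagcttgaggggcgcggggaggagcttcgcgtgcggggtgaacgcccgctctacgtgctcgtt

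The VPS26B stretch held 2 GC boxes and 2 overlapping matches to the NRF1 motif, which together form its longest run of capitals. The VPS29 stretch held 2 GC boxes and 1 CCAAT box, and the VPS35 stretch 3 of each. The SNX27 stretch held 2 GC boxes and 1 match (TGAATCA) to the AP-1 motif as searched, with any base allowed in the middle. The SNX3 stretch held no match to any of the 9 motifs. No match says only that these letters are not in this window.

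Most genes of both families had an APC peak over their start. A TSS was counted as covered where the peak, laid around its centre at the listed distance, reached across it. Peaks listed under older gene symbols were counted for the current gene. Only peaks named for a gene were counted for it, in the families and in the background alike. A start reached only by a peak named for a neighbouring gene was therefore counted as not covered. A peak covered the TSS of 28 of 35 VPS genes (80.0%, 95% Wilson interval 64.1 to 90.0) and of 19 of 30 SNX genes (63.3%, interval 45.5 to 78.1), against 36.4% of 20056 protein-coding genes. A peak centre lay within 10 kb of the TSS for 29 VPS genes (82.9%, interval 67.3 to 91.9) and 22 SNX genes (73.3%, interval 55.6 to 85.8), against 50.7% of all protein-coding genes. Any named peak was found for 31 VPS genes (88.6%) and 26 SNX genes (86.7%), against 67.2% of all. The VPS and SNX intervals overlapped for each of these 3 shares, and the lower bounds of both families for a covered TSS lay above the background. The families were picked with results of this list known, so these shares are a description. The complexes and groups taken up next hold few genes each, and no group was tested against its family or the background.

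**Figure D1:**
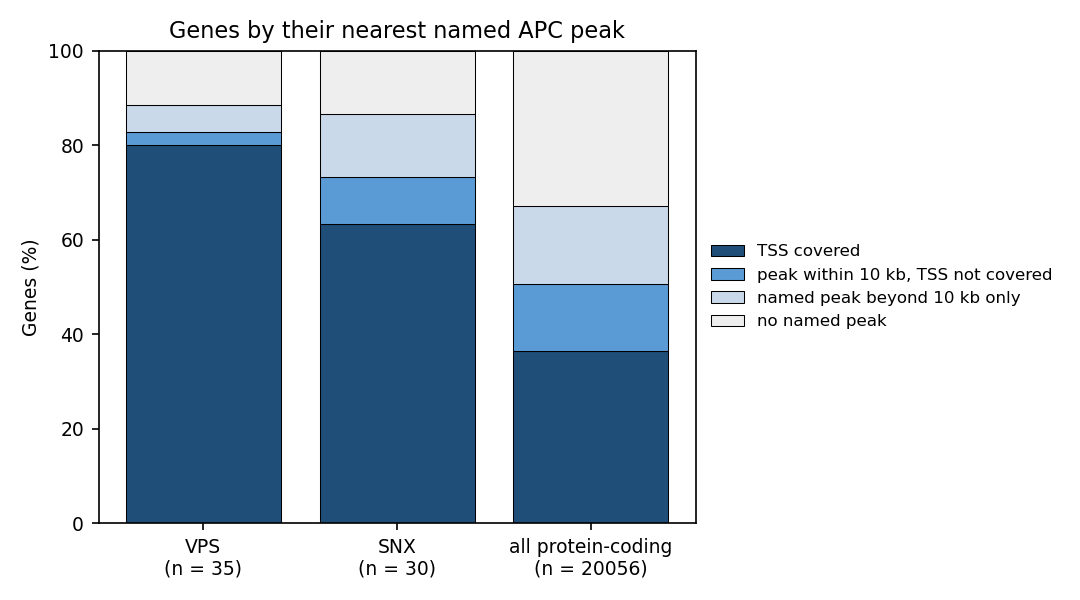
Share of genes (%) by their nearest named APC peak for the 35 VPS genes, the 30 SNX genes and 20056 protein-coding genes, as stacked bars from a covered TSS at the bottom to no named peak at the top. The covered part takes 80.0% of VPS, 63.3% of SNX and 36.4% of all protein-coding genes.

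The core retromer genes except VPS35 had peaks named for them at their starts. VPS26A and VPS26B encode alternative versions of the same retromer subunit. VPS26A had 3 peaks, the nearest a 1929-bp promoter peak centred 74 bp downstream of the TSS, and VPS26B had 1 promoter peak of 3265 bp (hg19 chr11:134093177-134096440) centred 247 bp downstream. VPS29, the third subunit, had 1 promoter peak of 2344 bp (chr12:110938455-110940797). No peak was named for VPS35, the scaffold that joins the other two. ORC6, the gene next to VPS35 in RefSeq order, had a promoter peak of 2646 bp (chr16:46722143-46724787) centred 93 bp upstream of the ORC6 TSS (-93 bp). Whether it reaches the VPS35 start was not measured. Retriever is the related complex of VPS29, VPS26C and VPS35L, and both of its own subunits had a covered TSS under older symbols. VPS26C, listed as DSCR3, had a 2327-bp promoter peak, and VPS35L, listed as C16orf62, one of 2266 bp.

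Among the cargo adaptors of retromer and retriever, 1 of 4 had a covered TSS, against 63.3% of SNX genes and 36.4% of all protein-coding genes. SNX27, which binds PDZ-ligand cargo for retromer, had a 1562-bp promoter peak centred 24 bp downstream of the TSS and a 607-bp peak in its first intron. SNX3, the adaptor for WLS, had 2 peaks, of 790 and 1393 bp, both in its first intron 23533 and 32551 bp downstream. No peak was named for SNX17, the retriever adaptor. A 1367-bp peak annotated to the end of the SNX17 transcript was named for ZNF513, the next gene. SNX31, a relative of SNX17, had a single intergenic peak of 3092 bp centred 24490 bp upstream (-24490 bp). By contrast WLS itself had a 1934-bp promoter peak centred 18 bp downstream of its TSS.

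Of the 5 ESCPE-1 sorting nexins, which form BAR-domain tubules, 3 had a covered TSS, against 63.3% of SNX genes and 36.4% of all. SNX1 (1220 bp, first intron), SNX2 (1250 bp, first exon) and SNX5 (2021 bp, promoter) had a peak over the TSS. The SNX1 and SNX2 peaks were short beside the 2140-bp median of the 19 TSS-covering SNX peaks. SNX6, the partner that pairs like SNX5 with SNX1 or SNX2, had 5 peaks and none over the TSS, the nearest being 1780 bp long and centred in an AluJb repeat 4842 bp upstream (-4842 bp). SNX32, their brain-enriched relative, had its nearest peak 9062 bp downstream, also in an Alu repeat, and a second of 2507 bp. SNX32 was the farthest gene inside the 10-kb limit and SNX11, at 11105 bp, the nearest outside it.

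Of the 7 other BAR-domain sorting nexins, 6 had a covered TSS, against 63.3% of SNX genes and 36.4% of all protein-coding genes. The longest of these TSS-covering peaks was at SNX8 (4557 bp, chr7:2350846-2355401), centred 976 bp downstream in the first intron. SNX33, which with SNX9 and SNX18 carries an SH3 domain and acts in endocytosis, had a 3918-bp peak centred in a CpG island 1370 bp upstream (-1370 bp) that reached over the TSS. It also had 2 intergenic peaks of 5435 and 3034 bp, 18577 and 24171 bp downstream. The SNX9 peak (1413 bp) reached only 64.5 bp upstream of its TSS by the listed distance, and SNX18 had a 2454-bp peak in its first exon. SNX7 had 1 peak of 1755 bp, and SNX4, which acts in recycling and autophagy, had a 1708-bp promoter peak and 6 others. SNX30 was the exception, and its 982-bp peak, annotated as promoter, ended about 82 bp before the TSS (-82 bp).

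All 4 sorting nexins grouped here as PX-RGS had a covered TSS, against 63.3% of SNX genes and 36.4% of all. The name is a group label, and the domains of each gene were not checked. Their peaks were 3237 bp long at SNX25, 2269 bp at SNX14, 2140 bp at SNX19 and 1586 bp at SNX13. The remaining 10 sorting nexins were uneven, with 5 covered, 2 with distant peaks only and 3 without a named peak. SNX22 had the longest TSS-covering peak of its family (5534 bp, chr15:64442892-64448424), centred 1742 bp downstream, and a second peak of 1584 bp that ended 272 bp before it. SNX29 had a 3753-bp and SNX24 a 3164-bp promoter peak, while the promoter peaks at SNX15 (2150 bp) and SNX12 (1389 bp) were shorter. SNX11 had the longest peak of the family (6019 bp, chr17:46193044-46199061), in intron 5 of its 7 and away from the TSS. SNX16 had 5 peaks, none closer than 34261 bp. SNX10, SNX20 and SNX21 had no named peak, although a 1817-bp peak at the end of the SNX20 transcript was named for another gene.

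**Figure D2:**
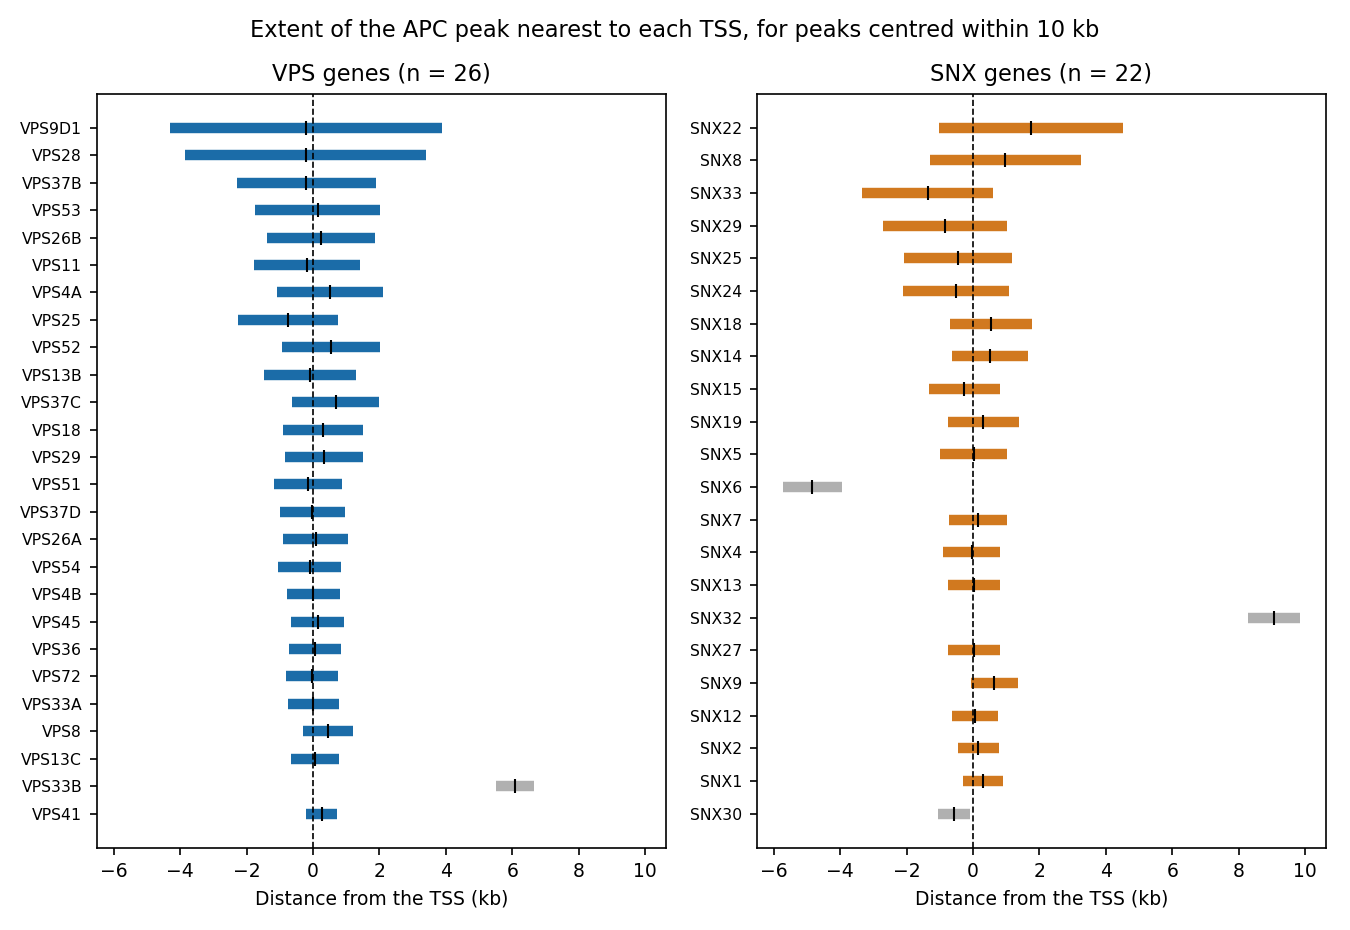
Extent of the peak nearest to the TSS (kb from the TSS, negative upstream) for the 26 VPS and 22 SNX genes listed under their current symbol with a peak centre within 10 kb, sorted by length, with a tick at each peak centre and grey for peaks that do not cover the TSS. VPS9D1 and VPS28 stand out at 8188 and 7257 bp, and the grey bars are VPS33B, SNX6, SNX32 and SNX30.

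ESCRT genes were covered in 8 of 9 cases, against 80.0% of VPS genes and 36.4% of all protein-coding genes. VPS28, the ESCRT-I subunit that links to ESCRT-II, had a 7257-bp promoter peak (chr8:145650536-145657791), the second longest of both families. Of the 4 alternative VPS37 subunits of ESCRT-I, VPS37B had a 4159-bp promoter peak, VPS37C one of 2612 bp in its first intron and VPS37D a promoter peak of 1966 bp, while no peak was named for VPS37A. CNOT7, which stands next to VPS37A in RefSeq order, had a 1879-bp promoter peak. VPS37B had 4 further peaks of 1948 to 4899 bp, longer than most peaks away from a TSS. The ESCRT-II subunits VPS25 (2991 bp) and VPS36 (1567 bp) each had a promoter peak. VPS4A and VPS4B encode the ATPases that take ESCRT-III apart. The VPS4A peak was 3186 bp long and centred in a CpG island, and the VPS4B peak was 1616 bp long and centred 11 bp from the TSS.

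HOPS and CORVET genes were covered in 5 of 7 cases, against 80.0% of VPS genes and 36.4% of all protein-coding genes. The shared core subunits VPS11 (3193 bp), VPS18 (2396 bp) and VPS33A (1537 bp) and the CORVET subunit VPS8 (1483 bp) had a peak over the TSS. VPS18 also had peaks of 4114 bp centred 4787 bp upstream (-4787 bp) and of 5525 bp centred 11486 bp downstream. The HOPS subunits differed: VPS41 had the shortest TSS-covering peak of both families (925 bp), and VPS39 had only a 613-bp peak in an AluSx1 repeat 30864 bp upstream (-30864 bp) under its own name. Another of 1417 bp, inside a VPS39 intron, was named for MIR627. No peak was named for VPS16, the other core subunit. PCED1A and PTPRA, its neighbours in RefSeq order, had promoter peaks of 3626 and 1564 bp, and 2 peaks of 1557 and 658 bp in the first intron of VPS16 were named for PTPRA. VPS33B, which works in a separate tether with VIPAS39, had 1 peak of 1155 bp in its second intron, centred 6080 bp downstream. For VIPAS39 the nearest peak was 644 bp long and 3098 bp downstream, so neither of the 2 partners had a covered TSS.

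All 5 GARP and EARP genes had a covered TSS, against 80.0% of VPS genes and 36.4% of all protein-coding genes. VPS51, VPS52 and VPS53 are shared by both complexes and had peaks of 2036, 2932 and 3766 bp. VPS54, the subunit of GARP alone, had a 1882-bp promoter peak, and VPS50, the subunit of EARP alone and listed as CCDC132, one of 1405 bp centred 20 bp upstream (-20 bp).

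The VPS13 genes encode long bridge-like lipid transfer proteins and differed among themselves. VPS13B and VPS13C had promoter peaks of 2780 and 1421 bp. VPS13D had 2 peaks, of 465 and 719 bp, far inside the gene at 116007 and 137778 bp from its TSS. No peak was named for VPS13A, but a 1921-bp peak (chr9:79791767-79793686) annotated to its first intron was named for the antisense gene VPS13A-AS1 and covered the TSS of that gene.

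VPS45, a partner of membrane-fusion SNAREs, had a 1597-bp promoter peak. VPS9D1 had the longest peak of both families, 8188 bp (chr16:89783526-89791712), annotated as promoter. VPS72 shares the name but encodes a chromatin protein of the complexes that place histone H2A.Z, and it had a 1563-bp promoter peak.

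The promoter class was more frequent among VPS than among SNX peaks, with overlapping intervals, while the shares of peaks over a TSS lay closer together. Of VPS peaks, 19 of 84 were annotated as promoter (22.6%, interval 15.0 to 32.6), against 10 of 69 SNX peaks (14.5%, interval 8.07 to 24.7) and 12.6% of the 35774 peaks of protein-coding genes. A TSS was covered by 29.8% of VPS peaks, 27.5% of SNX peaks and 21.1% of all peaks of protein-coding genes. The class is set at the peak centre: 19 of the 25 TSS-covering VPS peaks were annotated as promoter, against 9 of the 19 SNX peaks. Of the other SNX peaks over a TSS, 4 were annotated to an exon, 4 to an intron, 1 to a 5′ UTR and 1 as intergenic. Of the 19 VPS promoter peaks, 4 were annotated to a transcript of another gene, and without them the VPS share was 17.9% (interval 11.1 to 27.4). Taking promoter, 5′ UTR and exon 1 classes together gave 25.0% of VPS and 21.7% of SNX peaks. Among TSS-covering peaks the centre lay downstream of the TSS in 15 of 25 for VPS and 13 of 19 for SNX (68.4%), against 59.4% for all protein-coding genes.

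TSS-covering peaks were about as long in the 2 families as in the list as a whole. The median was 2344 bp for VPS (range 925 to 8188, n = 25) and 2140 bp for SNX (range 1220 to 5534, n = 19), against 2230 bp over all 7543 such peaks of protein-coding genes. A longer peak covers a TSS more readily, so this set is selected on length. The 59 other VPS peaks had a median of 941 bp (95% binomial interval 781 to 1158) and the 50 other SNX peaks one of 966.5 bp (interval 861 to 1393), against 1194 bp over the other peaks of protein-coding genes. Without VPS13B, which gave 16 of the 59, the VPS median was 1076 bp. Only 6 member peaks were 5 kb or longer (3.92%, against 2.98% of all peaks of protein-coding genes). They belonged to VPS9D1, VPS28, SNX11, SNX22, VPS18 and SNX33, and 3 of them covered a TSS.

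**Figure D3:**
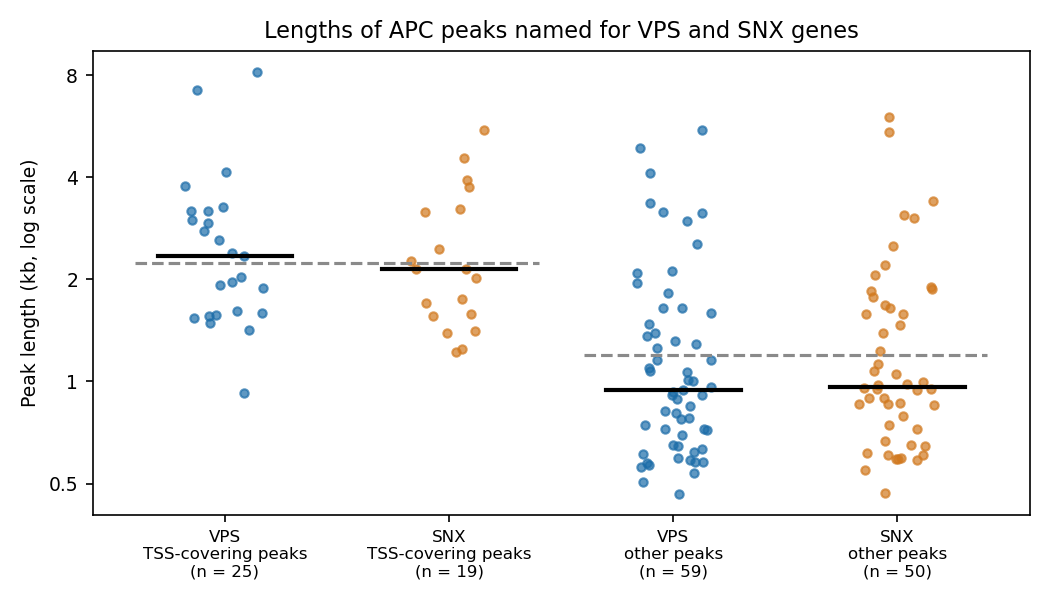
Length (kb, log scale) of each VPS and SNX peak, split into peaks that cover the TSS and all others, with a black bar at each median and a dashed grey line at the median of all peaks of protein-coding genes in the same class. The TSS-covering medians of 2344 bp for VPS and 2140 bp for SNX lie beside 2230 bp, and the other medians of 941 and 966.5 bp lie below 1194 bp.

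Away from the TSS, member peaks were mostly centred in SINE repeats, the class that holds Alu elements. The share was 39 of 59 VPS peaks (66.1%, interval 53.4 to 76.9) and 29 of 50 SNX peaks (58.0%, interval 44.2 to 70.6), against 48.2% of such peaks over all protein-coding genes, a value inside the SNX interval and below the VPS one. Without VPS13B the VPS share was 62.8% (interval 47.9 to 75.6), which takes in the background. All 69 SINE-centred member peaks, the one over the SNX8 TSS included, lay in Alu-type repeats: 45 in AluS, 15 in AluY, 8 in AluJ and 1 in FLAM. Over all protein-coding genes 62.2% of SINE-centred peaks were AluS, against 65.2% here. SINE-centred peaks were the short ones, with medians of 805 bp in VPS and 852 bp in SNX, against 1287 and 1467 bp for the peaks away from the TSS with no SINE at the centre. Over all protein-coding genes the same medians were 900 and 1409 bp. How reads from near-identical Alu copies were placed is not given in the sources used here, and its part in these peaks was not tested.

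The number of peaks per gene was similar, at 3 for VPS (84 peaks in 28 genes, exact Poisson interval 2.39 to 3.71), 2.65 for SNX (interval 2.06 to 3.36) and 2.61 for all protein-coding genes with a peak. The median was 2 in each. A single peak was found for 10 VPS genes (35.7%) and 10 SNX genes (38.5%), against 39.5% of all protein-coding genes with a peak. VPS13B, whose loss causes Cohen syndrome, led with 17 peaks over 247347 bp of chromosome 8, of which 12 were centred in SINEs and 14 were intronic. Its 16 peaks away from the TSS were 558 to 2113 bp long. VPS54 and SNX4 had 7 peaks each, VPS45 and SNX14 had 6, and no peak of VPS54 or SNX4 was longer than 1882 bp.

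A peak names 1 gene only, and some peaks inside these genes were named for others. By the annotated transcript, 153 peaks lay in or at a VPS or SNX transcript, and 45 of these, in 19 genes, were named for another gene. The same share was not counted over all protein-coding genes, so whether 45 of 153 is unusual was not tested. This set is not the 153 member peaks, many of which lay outside the transcripts of their gene. VPS13B transcripts held 25 peaks, of which 10 were named otherwise, for the microRNA genes MIR599 and MIR875 or for COX6C. VPS13D held 10, of which 8 were named for SNORA59A, with lengths of 587 to 3959 bp, so the 2 short peaks under its own name were not the whole of its signal. VPS45 held 8, with 4 named for PLEKHO1, SNX25 held 5, with 2 named for LRP2BP, and VPS35L held 4, with 3 named for IQCK. The reverse occurred at 4 starts, where the promoter peak named for a VPS gene was annotated to a transcript of another gene: NCAPD3 for VPS26B, RAD9B for VPS29, RPS18 for VPS52 and ZNF276 for VPS9D1. Each of these 4 peaks also covered the TSS of the VPS gene, and none of the 10 SNX promoter peaks was annotated in this way. SNX2 and SNX24 are neighbours on chromosome 5, where their 8 peaks ran from 122110231 to 122182228, and 1 of the peaks named for SNX24 lay in an SNX2 intron.

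**Figure D4:**
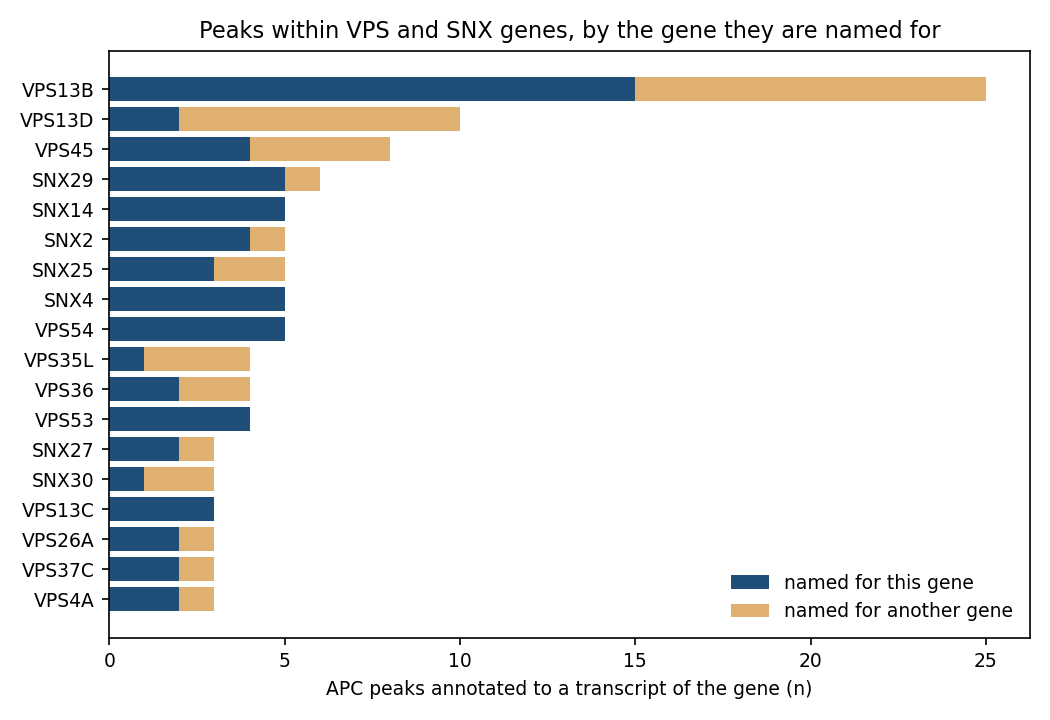
Number of APC peaks annotated to a transcript of each VPS or SNX gene with 3 or more such peaks, split by whether the peak was named for that gene (dark) or for another gene (light). VPS13B held 25 peaks, 10 of them named for other genes, and VPS13D held 10, 8 of them named for another gene.

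Other genes of the endosomal pathway gave shares near those of the 2 families. Of 63 partner genes, 43 had a covered TSS (68.3%) and 47 a peak centre within 10 kb (74.6%). The shares over all protein-coding genes were 36.4% and 50.7%. Other ESCRT genes were covered in 14 of 22 cases, with peaks of 5874 bp at the HGS promoter, which encodes the ESCRT-0 entry factor, 4252 bp at MVB12A and 1151 bp at the TSG101 promoter. A 13251-bp peak centred at -4228 bp from the CHMP6 TSS was long enough to cover its TSS. WASH and Commander genes, which shape actin on endosomes and work with retriever, were covered in 13 of 18, and endosomal RAB and PI 3-kinase genes in 12 of 15, among them RAB5A (2107 bp), RAB7A (1933 bp) and PIK3R4 (2818 bp), the human VPS15. Retromer cargo and other tether genes had the lowest share of these lists, with 4 of 8 covered (50%), against 36.4% of all protein-coding genes. The cargo receptors M6PR (2035 bp) and IGF2R (2054 bp) were covered, whereas no peak was named for SORT1. In all, 6 of the 63 partners had no named peak, against 32.8% of all protein-coding genes.

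The motifs were searched in the RefSeq promoter windows of 300 bases, which were matched for 25 VPS and 23 SNX genes. Both strands were searched for the E-box as CACGTG, the AP-1 motif as TGANTCA, the TCF/LEF motif as CTTTGAT and the ETS motif as CCGGAAG. The N in the AP-1 motif stands for any base. The other motifs were the CCAAT box by its own letters, the GC box as GGGCGG, the TATA box as TATAAA, the YY1 motif as AAGATGG and the NRF1 motif as GCATGCGC. The E-box, the core of the element through which TFEB acts on lysosomal genes, was present in 5 of 25 VPS promoters (20.0%) and 1 of 23 SNX promoters (4.35%), against 8.88% of 15843 promoters of protein-coding genes. The ETS motif was present in 7 VPS promoters (28.0%) and 4 SNX promoters (17.4%), against 14.2% of all. The TCF/LEF motif, the site read by the DNA-binding partners of β-catenin, was present in no VPS promoter and in 1 SNX promoter, that of SNX14, against 1.94% of all. AP-1 matches stood at 1 VPS promoter (4.00%) and 2 SNX promoters (8.70%), against 5.75% of all. GC boxes were the most common motif, at 72.0% of VPS and 78.3% of SNX promoters, against 58.5% of all. Median GC content was 66.0% in VPS and 71.7% in SNX promoters, against 62.7% of bases over all promoters. These counts are small, no difference was tested, and a match is not evidence that a factor binds.

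The E-box matches and the TCF/LEF match are shown in windows of 30 bases, with the match in capitals, because the E-box was, of the 9 motifs, the one whose share differed most in percentage points between VPS and SNX promoters, and TCF/LEF is the β-catenin site. The VPS11, VPS37B and VPS50 starts, and that of VPS8, lay under a peak, and so did those of SNX8 and SNX14. No peak was named for VPS16.
VPS11, GRCh38.p14 chr11:119067750-119067779, plus strand: gaagctgccgacCACGTGattcgctggctc
VPS11, GRCh38.p14 chr11:119067772-119067801, plus strand: gctggctcagctCACGTGacaaagctcccg
VPS37B, GRCh38.p14 chr12:122896146-122896175, minus strand: cagggctggcgtCACGTGtcccccccgcgg
VPS50, GRCh38.p14 chr7:93232351-93232380, plus strand: ggtcggctcctcCACGTGaccacccactat
VPS16, GRCh38.p14 chr20:2840667-2840696, plus strand: cggcggcctcgcCACGTGacccggacgggc
VPS8, GRCh38.p14 chr3:184812171-184812200, plus strand: agtgggtgcggtCACGTGggccggcggtcc
SNX8, GRCh38.p14 chr7:2314621-2314650, minus strand: aggctccgtgtcCACGTGgacggggagggg
SNX8, GRCh38.p14 chr7:2314425-2314454, minus strand: gcgggaggaagtCACGTGggagcgcgggct
SNX14, GRCh38.p14 chr6:85594057-85594086, minus strand: gctggggctgtcCTTTGATttccggaaatg

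**Figure D5:**
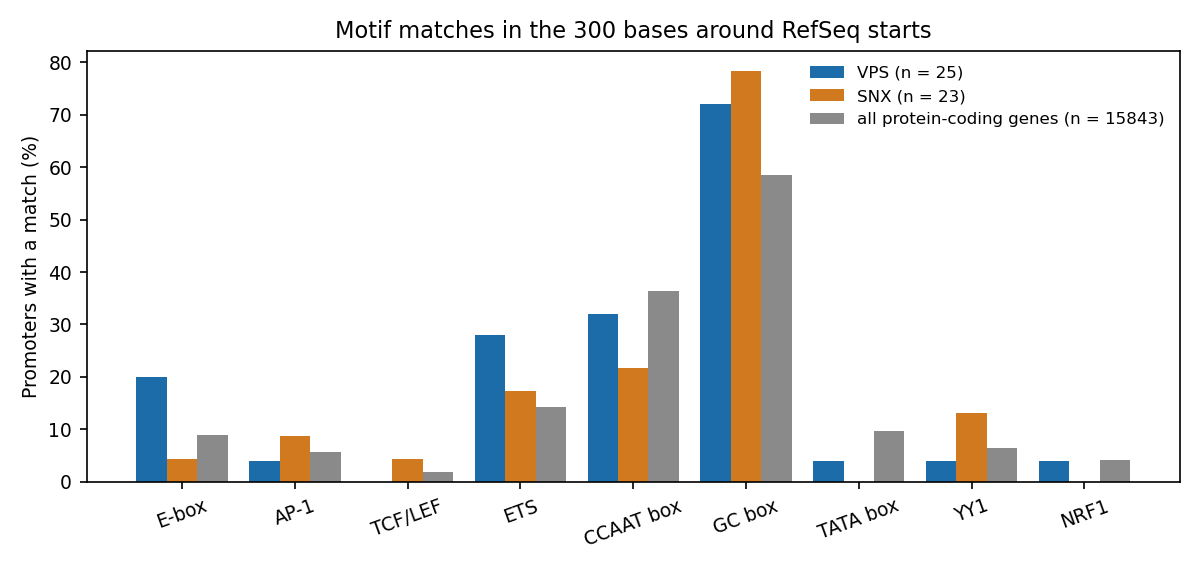
Share of RefSeq promoter windows (%) with at least 1 match to each motif for 25 VPS genes, 23 SNX genes and 15843 protein-coding genes. The E-box stood at 20.0% in VPS, 4.35% in SNX and 8.88% in all promoters, and GC boxes were the most common motif in each set.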

How the data were processed

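One annotated list of peaks from the APC ChIP was analysed; the input library has no table of its own here. MACS2 and hg19 are named in the submitters' processing notes. The sources used here do not give the caller's version or threshold, the aligner, the annotation tool or how the input entered. In the file as deposited, the score equals end minus start plus 2 bp in all 44771 peaks, so it was used as a length and not as a strength. The header of the distances says only that they are to the TSS. They were taken to run from the peak centre to the TSS of the named gene.

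Gene names were matched to 20056 protein-coding genes of RefSeq (GRCh38.p14, names and gene order only) by current or unique older symbol; 13486 of 13691 names matched (98.5%). Annotated transcripts were assigned to genes by the same table; 3 accessions it does not hold went to the VPS or SNX gene that most of their peaks were named for. RefSeq promoter sequences (250 bases before and 50 after the start) were matched by symbol for 48 of 65 family genes. Shares have Wilson intervals, medians order-statistic binomial intervals and peaks per gene exact Poisson intervals, all 95%. Members, gene lists and comparisons were chosen with earlier results of these data known. Every family gene could be named, in full for the 8 of each family with the longest peak nearest to the TSS and the 3 with most peaks. Helper functions were tested on simulated data. Python 3.11.15, numpy 2.4.6, pandas 2.3.3, scipy 1.17.1 and matplotlib 3.10.9 were used.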

Additional observations from a re-analysis of the deposited data

How the results depend on the processing

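Of 56 alternatives over 10 results, 38 stayed within the 95% interval of the reported value and 18 moved outside it; the cause was not tested, except that several settings select on the measured length or on having a peak. The shares of genes with a covered TSS moved only when genes without a named peak were left out, to 90.3% for VPS, and the share within 10 kb then stood at 93.5% for VPS. The SNX share within 10 kb was 86.7% for links within 50 kb and 86.7% at any distance. With peaks shorter than 1350 bp, the median of the whole list, left out, the promoter share was 45.2% for VPS and 25.7% for SNX, peaks per gene were 1.75 and 1.52, and the median lengths 2228.5 and 2061 bp. Without SINE-centred peaks the promoter share was 42.2% for VPS and 25.6% for SNX, peaks per gene were 1.73 and 1.56, and the medians 1882 and 1708 bp. The median over the peak nearest to the TSS of each gene was 2001 bp for VPS and 1959.5 bp for SNX. Matching by current symbols only, pooling promoter, 5′ UTR and exon 1 classes, and dropping promoter peaks annotated to another gene's transcript were added after seeing the data. With current symbols only, 71.4% of VPS genes had a covered TSS. No paired analysis was possible because each group is 1 library. The list gives no reads, so depth limits cannot be stated and a gene without a named peak is not shown to lack signal.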

Other observations

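Non-coding relatives of the 2 families also carried peaks, which the counts above leave out. The VPS9D1-AS1 peak, 6253 bp long (chr16:89777241-89783492), ended 33 bp before the VPS9D1 promoter peak began, so that the 2 calls ran almost without a break from 89777241 to 89791712. VPS13A-AS1 had a second peak of 495 bp in an AluSx repeat. The pseudogene SNX29P2 had 5 peaks of 1163 to 4038 bp, the nearest centred at -29804 bp from its TSS, and SNX29P1 had 1 of 1942 bp. SNX29P1 and SNX29P2 are copies of parts of SNX29, and how reads were divided among the copies is not known, so their counts and those of SNX29 are uncertain.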
